A study of Mus musculus with 12 samples.

Results

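The subject here is the tubulins of mouse liver. A list of 10 alpha- and beta-tubulin genes was followed by symbol through 12 arrays, and a gene was measured where a probe set was annotated to it alone. Of the 10 genes, 7 had 1 probe set of their own (Tubb2a, Tubb2b, Tubb5, Tubb6, Tuba1a, Tuba4a and Tuba8), out of 19937 genes so measured on the array's 34760 probe sets. Tubb4b, Tuba1b and Tuba1c appeared only on probe sets that name several genes, and no value is given for them as single genes. The list was drawn up with earlier results of these data known, and Tubb2a and Tuba1a were selected on their difference between IVF and natural mating in WT livers. Their values in that comparison are therefore a description without a test.

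Livers came from male mice in 4 groups of 3, one array per liver: Atf7-/- by in vitro fertilization (IVF), Atf7-/- by natural mating, WT by IVF and WT by natural mating. The labels give an age of 4 weeks for every liver, and the methods of the study give a lower age. All mice were of the C57BL6/JJmsSlc background, and the Atf7-/- mice carried the mutation constitutively. IVF used oocytes of superovulated females in HTF medium, and the embryos were carried by pseudopregnant ICR females, so the IVF groups also differ from the naturally mated groups in hormone treatment, culture and the strain of the carrying female. These cannot be told apart here. Separate animals are the replicates, and the labels do not tie the same replicate number of different groups to one litter or day.

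Tubulins are the building blocks of microtubules. One alpha- and one beta-tubulin, folded by the CCT chaperonin and a set of folding cofactors, join into a dimer, and dimers polymerise from templates that contain gamma-tubulin. The genes within each family encode closely similar proteins, called isotypes, that differ mostly at their tails, where enzymes remove or add tyrosine and glutamate. Other enzymes add or remove acetyl groups. In hepatocytes microtubules carry vesicles for secretion of plasma proteins and lipoproteins and for delivery to the bile canaliculus, and in dividing cells they form the spindle. Tubulin mRNAs are also known to decay faster when free tubulin is in excess. ATF7 is a transcription factor of the ATF/CREB family, whose members recognise the cAMP response element, TGACGTCA, and it is known for recruiting enzymes that methylate histone H3 at lysine 9.

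The promoters of the selected genes Tubb2a and Tuba1a, and of Tubb5, are printed as examples. Each is the 120 bases before the RefSeq start of the gene in the GRCm38.p6 build, 5′ to 3′ on the strand of the gene, which is the minus strand for all of them. Tubb2a lies at chr13:34078009-34078128, Tuba1a at chr15:98953502-98953621 and Tubb5 at chr17:35838302-35838421. Capitals mark the cAMP response element (TGACGTCA), the TATA box core (TATAA) and the CCAAT box core (CCAAT).
Tubb2a: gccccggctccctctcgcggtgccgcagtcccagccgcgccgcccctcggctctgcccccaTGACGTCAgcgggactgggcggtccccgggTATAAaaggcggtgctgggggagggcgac
Tuba1a: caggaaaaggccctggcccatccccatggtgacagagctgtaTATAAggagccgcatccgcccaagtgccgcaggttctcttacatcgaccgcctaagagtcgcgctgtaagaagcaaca
Tubb5: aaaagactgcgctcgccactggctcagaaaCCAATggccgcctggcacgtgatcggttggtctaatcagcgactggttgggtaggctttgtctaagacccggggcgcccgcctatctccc

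The letters of the motifs were chosen after these promoters had been read, and both strands were searched. Of the 10 listed genes, 8 were matched by symbol to a promoter window of 250 bases before and 50 bases after the start. Of these, 1 held TGACGTCA, that of Tubb2a, 59 to 52 bases before the start, and 1.79% of all 32851 RefSeq promoter windows of the same length held it. TATAA was found in 4 of the 8 windows and in 24.9% of all windows, but in Tuba4a and Tubb4b the match lay after the start. It stood 29 to 25 bases before the start in Tubb2a and 78 to 74 bases before it in Tuba1a. CCAAT was found in 4 of the 8 windows and in 37.4% of all windows, and in Tubb5 the copy shown stood 90 to 86 bases before the start. No motif overlapped another in the sequences shown. A match describes the letters only, and binding of ATF7 was not measured in these arrays.

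The values are log2 expression after robust multi-array averaging (RMA), so a difference of 1 is a 2-fold change. All 7 measured tubulins averaged above the median probe set of the arrays, 6.27. The livers read as liver, with Alb between 13.68 and 14.05 on every array. The probe set of Atf7 that tracked genotype averaged 5.52 in Atf7-/- IVF livers, 5.96 in Atf7-/- natural mating livers, 8.04 in WT IVF livers and 8.78 in WT natural mating livers, and it was also lower with IVF in WT, at -0.74 (limma, adjusted p = 0.0384). The second Atf7 probe set averaged 8.38 and 8.68 in the Atf7-/- IVF and natural mating livers and 8.76 and 9.02 in the WT IVF and natural mating livers, and none of its differences was called. The study itself reported that IVF left Atf7 mRNA unchanged in liver, and ATF7 protein comparable by western blotting. The fall on 1 probe set is therefore not read as a fall of ATF7. Array medians lay between 6.22 and 6.34, and arrays of one group correlated at 0.980 or above. A change was called where the Benjamini-Hochberg adjusted p over all 34760 probe sets was at most 0.05 and the log2 fold change at least 0.6 in size, by limma with the 4 groups in one fit. These are whole livers, in which fewer cells of a type and less RNA per cell cannot be told apart.

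**Figure D1:**
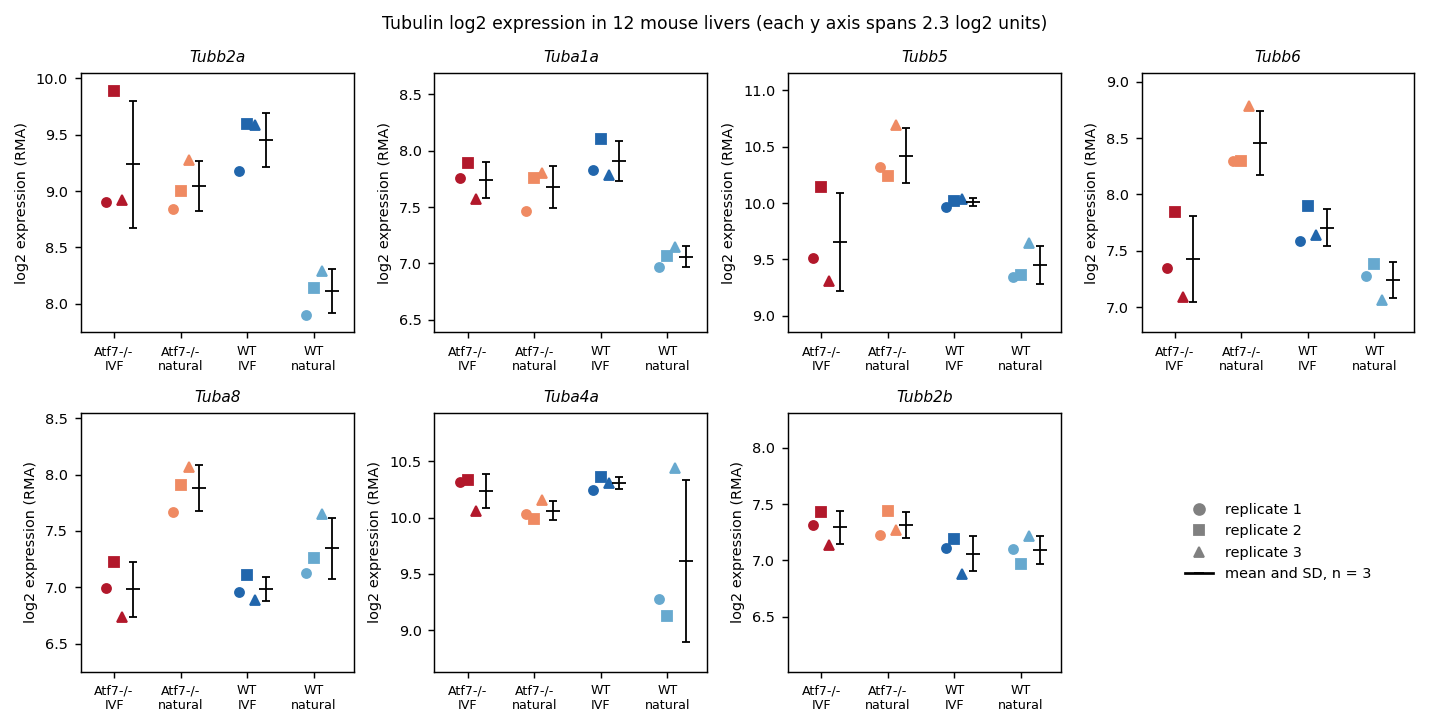
Log2 expression of the 7 measured tubulins in 12 livers, with groups from left to right Atf7-/- IVF, Atf7-/- natural mating, WT IVF and WT natural mating. Symbols are single livers, marked by replicate number, and black bars are the mean and SD of 3. Tubb2a and Tuba1a were lowest in all 3 WT natural mating livers, while Tubb5, Tubb6 and Tuba8 were highest in the Atf7-/- natural mating livers.

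The tubulins fell into patterns that differed by isotype. Tubb2a and Tuba1a were low in WT natural mating livers and about level in the other groups. Tubb5 and Tubb6 were highest in Atf7-/- natural mating livers. Tuba8 was also highest there, Tuba4a varied most within one group, and Tubb2b differed little.

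Tubb2a encodes a beta-tubulin that is abundant in brain and present in many tissues. Its log2 values were 8.90, 9.89 and 8.92 in Atf7-/- IVF livers, 8.84, 9.0 and 9.28 in Atf7-/- natural mating livers, 9.18, 9.60 and 9.58 in WT IVF livers, and 7.90, 8.14 and 8.29 in WT natural mating livers. The WT natural mating livers lay below every other liver, and the other groups overlapped. The log2 difference of IVF over natural mating in WT was 1.34 ± 0.25 (SE, n = 3 and 3), a 2.53-fold difference, which is the value on which the gene was selected. In Atf7-/- livers the same difference was 0.19 ± 0.25 and was not called (limma, adjusted p = 0.702). It took the other sign, -0.13, without Atf7-/- IVF replicate 2. ATF7 loss gave 0.93 in natural mating and -0.22 in IVF on the log2 scale, and these values share arrays with the selection, so no test is given.

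Tuba1a, an alpha-tubulin best known from developing neurons, showed a like pattern. Its log2 values were 7.76, 7.89 and 7.57 in Atf7-/- IVF livers, 7.46, 7.76 and 7.81 in Atf7-/- natural mating livers, 7.83, 8.11 and 7.78 in WT IVF livers, and 6.97, 7.07 and 7.15 in WT natural mating livers. Again the WT natural mating livers were the lowest 3 of the 12, and the other groups overlapped. The log2 difference of IVF over natural mating in WT, on which it was selected, was 0.85 ± 0.13 (SE, n = 3 and 3). In Atf7-/- livers it was 0.07 ± 0.13, with an adjusted p of 0.817 by limma. ATF7 loss gave 0.61 in natural mating and -0.17 in IVF. Over the 12 arrays Tuba1a and Tubb2a correlated at r = 0.931, a description, since the points share 4 groups.

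Tubb5 is the beta-tubulin used by most dividing and non-neuronal cells. Its log2 values were 9.51, 10.15 and 9.31 in Atf7-/- IVF livers, 10.32, 10.24 and 10.70 in Atf7-/- natural mating livers, 9.97, 10.02 and 10.04 in WT IVF livers, and 9.34, 9.36 and 9.65 in WT natural mating livers. Every Atf7-/- natural mating liver was above every liver of the other groups. Tubb5 rose by 0.97 ± 0.20 (SE) with ATF7 loss in natural mating, with an adjusted p of 0.00778 by limma. With IVF in Atf7-/- livers it fell by 0.76 ± 0.20 (adjusted p = 0.0263). This call was lost without Atf7-/- natural mating replicate 1 (limma, adjusted p = 0.0563) or 3 (0.101), without Atf7-/- IVF replicate 1 (0.0757) or 3 (0.103), and when limma was fitted to these 2 groups alone (0.0865). In WT livers the difference with IVF was 0.56 ± 0.20.

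Tubb6, a divergent beta-tubulin isotype, moved with Tubb5 and with a wider range. Its log2 values were 7.35, 7.84 and 7.09 in Atf7-/- IVF livers, 8.29, 8.30 and 8.79 in Atf7-/- natural mating livers, 7.59, 7.89 and 7.64 in WT IVF livers, and 7.27, 7.38 and 7.06 in WT natural mating livers. The Atf7-/- natural mating livers again stood above the other 9. Tubb6 rose by 1.22 ± 0.20 (SE), or 2.33-fold, with ATF7 loss in natural mating (limma, adjusted p = 0.00224). It fell by 1.03 ± 0.20 with IVF in Atf7-/- livers (limma, adjusted p = 0.00598), and leaving out each array in turn kept this call, with log2 fold changes between -1.24 and -0.87. In WT livers the difference with IVF was 0.47 ± 0.20. Tubb5 and Tubb6 correlated at r = 0.926 over the 12 arrays, again over points that share 4 groups.

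Tuba8 is an alpha-tubulin of restricted expression, known from muscle, heart and testis. Its log2 values were 6.99, 7.22 and 6.73 in Atf7-/- IVF livers, 7.67, 7.91 and 8.07 in Atf7-/- natural mating livers, 6.96, 7.10 and 6.89 in WT IVF livers, and 7.13, 7.25 and 7.65 in WT natural mating livers. Both IVF groups lay below their naturally mated counterparts with no overlap. Tuba8 fell by 0.90 ± 0.16 (SE) with IVF in Atf7-/- livers (limma, adjusted p = 0.00498), and this call held without each array in turn. In WT livers the difference was -0.36 ± 0.16. With ATF7 loss in natural mating the difference was 0.54 ± 0.16 and missed both thresholds (limma, adjusted p = 0.0529), but it was called at 0.69 without WT natural mating replicate 3 (adjusted p = 0.0177).

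Tuba4a is an alpha-tubulin whose gene does not encode a final tyrosine. Its log2 values were 10.31, 10.33 and 10.06 in Atf7-/- IVF livers, 10.04, 9.99 and 10.15 in Atf7-/- natural mating livers, 10.25, 10.36 and 10.31 in WT IVF livers, and 9.28, 9.12 and 10.44 in WT natural mating livers. One WT natural mating liver, replicate 3, was the highest of all 12 and the other WT natural mating livers were the lowest. The difference with IVF in WT was 0.69 ± 0.27 (SE), and it was 1.10 without that array. With ATF7 loss in natural mating the difference was 0.45 ± 0.27 (limma, adjusted p = 0.334), and it was called at 0.86 without that array (adjusted p = 0.00104). With IVF in Atf7-/- livers it was 0.18 ± 0.27 (adjusted p = 0.755).

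Tubb2b, a beta-tubulin of the developing nervous system that neighbours Tubb2a in the genome, ranged between 6.88 and 7.44 over the 12 livers. It averaged 7.29 in Atf7-/- IVF livers, 7.31 in Atf7-/- natural mating livers, 7.06 in WT IVF livers and 7.09 in WT natural mating livers. None of its differences was called. The differences were 0.23 ± 0.12 (SE) with ATF7 loss in IVF (limma, adjusted p = 0.817) and 0.22 ± 0.12 with ATF7 loss in natural mating (adjusted p = 0.268).

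**Figure D2:**
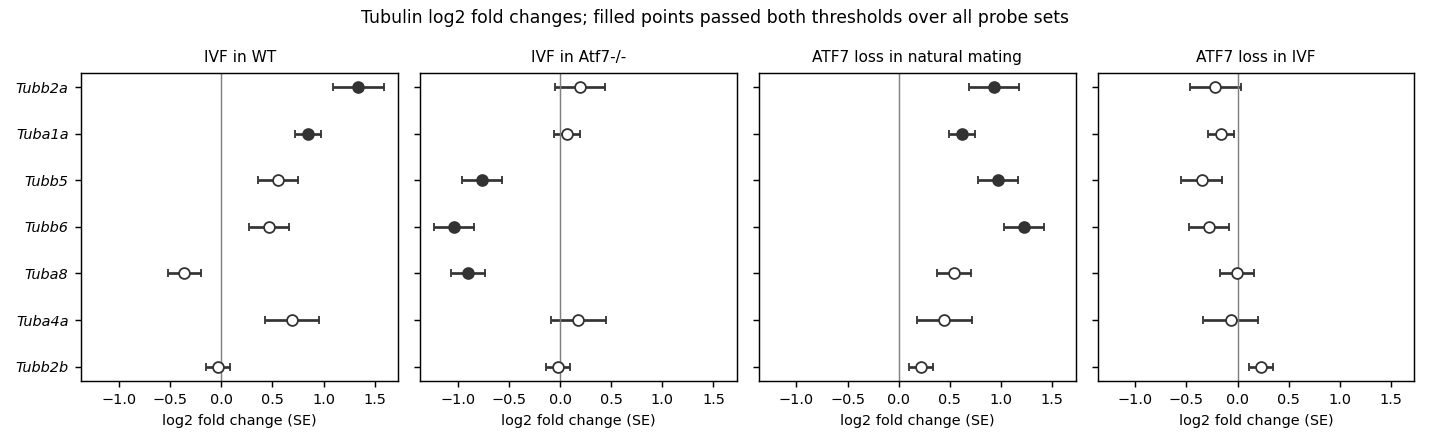
Log2 fold changes with SE of the 7 tubulins in 4 comparisons, IVF over natural mating in each genotype and Atf7-/- over WT in each conception group (n = 3 livers per group). Filled points passed both thresholds over all probe sets, although Tubb2a and Tuba1a were selected on the IVF in WT values. Each ATF7 loss comparison shares arrays with that selection. All 7 points lie above 0 for ATF7 loss in natural mating, and no point is filled for ATF7 loss in IVF.

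Counted over the family, 2 of 7 tubulins rose with IVF in WT livers, Tubb2a and Tuba1a, against 2.85% of all probe sets. These are the selected genes and nothing is read from the count. The median log2 fold change was 0.56 for the 7, 0.47 for the 5 not selected and -0.036 for all probe sets. With IVF in Atf7-/- livers 3 of 7 fell, Tubb5, Tubb6 and Tuba8, where 3.51% of all probe sets fell, and 0 of 7 rose, where 3.27% did. The median of the 7 was -0.02 in that comparison, against 0.0057 for all probe sets.

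In natural mating 4 of 7 rose with ATF7 loss, Tubb2a, Tuba1a, Tubb5 and Tubb6, where 3.83% of all probe sets rose. The median was 0.61 for the 7 and 0.54 for the 5 not selected, against -0.019 for all probe sets. All 7 differences were above 0, those of the selected genes among them. In 6 of 7, all but Tuba4a, every Atf7-/- liver read above every WT liver. The share of all probe sets with such a separation was not counted, so nothing is read from this number. Tubb2a and Tuba1a count here through WT natural mating livers that also served their selection, so Tubb5 and Tubb6 are the genes with a test. The count was 2 without Atf7-/- natural mating replicate 2 or 3 or WT natural mating replicate 1, and Tubb5 and Tubb6 kept their calls without each of the 12 arrays.

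Among IVF livers 0 of 7 tubulins passed the thresholds in limma for ATF7 loss, and 0 of 7 had an unadjusted p under 0.05. Over the array 2 probe sets were called in either direction, 0.00575%, and 2126 had an unadjusted p under 0.05. The 7 log2 fold changes lay between -0.35 for Tubb5 and 0.23 for Tubb2b, and the groups overlapped for every tubulin. The median was -0.17 for the 7 and -0.07 for the 5 not selected, against 0.0073 for all probe sets.

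The difference between the effects of IVF in the genotypes was tested as an interaction, the effect in Atf7-/- livers minus that in WT livers. Tubb6 gave -1.50 ± 0.28 (SE) on the log2 scale (limma, adjusted p = 0.00988) and Tubb5 -1.32 ± 0.28 (adjusted p = 0.0175). Both calls were kept without each array in turn. Tuba1a, at -0.78 ± 0.18, also passed the thresholds, but in only 6 of the 12 fits with 1 array left out. Tubb2a, at -1.15 ± 0.35, did not pass, except without Atf7-/- IVF replicate 2 (-1.47) and where dim probe sets, or those without exactly 1 symbol, were left out. Both values contain the comparison on which these genes were selected, and nothing is read from them. Of the 5 other tubulins 2 were called below 0, Tubb5 and Tubb6, where 3.46% of all probe sets were, and the median of the 5 was -0.54, against 0.032 for all probe sets. Tuba8 gave -0.54 (adjusted p = 0.199), Tuba4a -0.51 (0.478) and Tubb2b 0.01 (0.977). For Tuba4a the interaction was -0.93 without WT natural mating replicate 3 (limma, adjusted p = 0.00582).

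Markers of dividing cells were read beside the tubulins. The mean log2 value of 12 probe sets for 11 dividing cell markers, among them Mki67, Top2a and Cdk1, was 6.42, 7.90 and 6.49 in Atf7-/- IVF livers, 6.94, 6.71 and 7.71 in Atf7-/- natural mating livers, 7.62, 7.69 and 7.61 in WT IVF livers, and 6.53, 6.74 and 6.13 in WT natural mating livers. Atf7-/- IVF replicate 2 and Atf7-/- natural mating replicate 3 stood above the other livers of their groups. Both were also the highest of their groups for every measured tubulin except Tubb2b. For Tubb2b only Atf7-/- IVF replicate 2 was. Of the 11 genes, 1 was called with IVF in WT, the checkpoint kinase Bub1 at 1.84 ± 0.45 (SE), with an adjusted p of 0.0304 by limma. None was called in the other comparisons. By unadjusted p under 0.05 in limma, 8 of the 12 probe sets passed with IVF in WT, where 24.9% of all did. For the interaction 9 passed, where 22.1% of all did. With IVF in Atf7-/- 1 passed (26% of all), with ATF7 loss in natural mating 2 (26.6%) and with ATF7 loss in IVF 1 (6.12%). The 1 with IVF in Atf7-/- was a dim probe set of Top2a, with group means between 2.64 and 3.10, which is part of the mean above. The other Top2a probe set gave 0.27 there and was not called (limma, adjusted p = 0.795). The median log2 fold change of the markers was 1.26 with IVF in WT, -0.13 with IVF in Atf7-/-, 0.76 with ATF7 loss in natural mating, -0.78 with ATF7 loss in IVF and -1.52 for the interaction. Their part in the tubulin values was not tested.

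**Figure D3:**
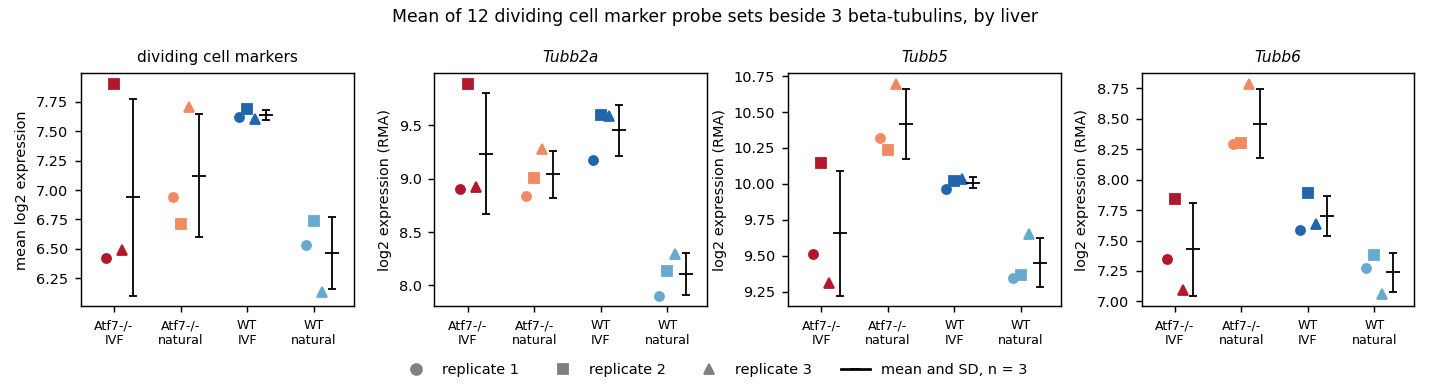
Mean log2 expression of 12 dividing cell marker probe sets, and log2 expression of Tubb2a, Tubb5 and Tubb6, in the same 12 livers, with groups from left to right Atf7-/- IVF, Atf7-/- natural mating, WT IVF and WT natural mating. Symbols mark the replicate, and black bars are the mean and SD of 3. Atf7-/- IVF replicate 2 was the highest liver of its group in all 4 panels.

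Results were therefore also taken without each of these livers. Without Atf7-/- IVF replicate 2, the log2 fold change with IVF in Atf7-/- was -1.01 for Tubb5, -1.24 for Tubb6 and -1.02 for Tuba8, and all 3 stayed called. Without Atf7-/- natural mating replicate 3, ATF7 loss in natural mating gave 0.83 for Tubb5 (limma, adjusted p = 0.0360) and 1.06 for Tubb6 (adjusted p = 0.0105), and IVF in Atf7-/- gave -0.87 for Tubb6 and -0.81 for Tuba8, all called, and -0.62 for Tubb5, which was not.

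Markers of liver cell types were read as lists and by called gene. In limma with IVF in WT, unadjusted p was under 0.05 for 5 of 8 stellate cell and fibroblast probe sets (median log2 fold change 0.41). The same held for 4 of 7 Kupffer cell probe sets (median -0.43) and 1 of 8 sinusoidal endothelial ones (0.10). With ATF7 loss in natural mating it held for 4 of 7 Kupffer cell probe sets (-0.39) and 2 of 8 stellate ones (0.27). Of all probe sets 24.9% passed in the first case and 26.6% in the second. Hepatocyte markers had a mean between 12.67 and 12.87 in Atf7-/- IVF livers, 12.97 and 13.05 in Atf7-/- natural mating livers, 12.82 and 12.91 in WT IVF livers, and 12.93 and 13.03 in WT natural mating livers. Of 7 hepatocyte genes, the transcription factor gene Hnf4a fell by 0.76 with IVF in Atf7-/- and rose by 0.68 with ATF7 loss in natural mating (limma, adjusted p = 0.00252 and 0.00390), and Pck1 fell by 0.77 with IVF in WT (adjusted p = 0.0247). Stellate cell and fibroblast markers had a mean between 8.80 and 8.88 in Atf7-/- IVF livers, 8.49 and 8.81 in Atf7-/- natural mating livers, 8.60 and 8.92 in WT IVF livers, and 8.07 and 8.59 in WT natural mating livers, and 1 of 8, Pdgfrb, rose, by 0.89 with ATF7 loss in natural mating (limma, adjusted p = 0.00115). Of 7 sinusoidal endothelial genes, Clec4g rose with IVF in WT, by 0.75, and with ATF7 loss in natural mating, by 1.0 (limma, adjusted p = 0.0225 and 0.00283), on 1 of its 2 probe sets. The other gave -0.10 and -0.09 and was not called. Its group means lay between 5.10 and 5.28, below the median probe set of the arrays, against 10.23 to 11.23 for the called probe set. The mean of the 8 sinusoidal endothelial probe sets, both of Clec4g among them, stayed between 8.62 and 9.10 over all livers.

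Of 7 Kupffer cell genes, Cd5l fell by 0.74 with IVF in WT (limma, adjusted p = 0.0164). With ATF7 loss in natural mating Cd5l, Clec4f and Marco fell by 1.04, 0.95 and 1.10, and Vsig4 rose by 0.62. The shares of all probe sets that fell with IVF in WT or with ATF7 loss in natural mating were not counted. Nothing is read from the number of marker genes that fell in these comparisons. Krt19, 1 of 5 cholangiocyte genes, rose by 0.60 with ATF7 loss in natural mating (limma, adjusted p = 0.00123). Of 5 lymphocyte genes, Ms4a1 rose with IVF in WT, by 0.93, and in Atf7-/-, by 0.71, while Ptprc rose by 0.80 with IVF in Atf7-/- and fell by 0.84 with ATF7 loss in natural mating. The interaction was called for Clec4g (-1.10, the same probe set), Pdgfrb (-0.89), Hnf4a (-0.74) and Vsig4 (-0.67) below 0, and for Cd5l (1.18) and Ptprc (1.02) above 0. None of 5 erythroid or 5 nerve and neuroendocrine genes was called in limma or had an unadjusted p under 0.05 in IVF in WT, IVF in Atf7-/- or ATF7 loss in natural mating. The nerve and neuroendocrine mean stayed between 4.99 and 5.33 in all livers. The part of these cells in the tubulin values was not tested.

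The machinery around the tubulins was counted on 7 further lists. For comparison, 2.85% of all probe sets rose with IVF in WT, and 3.27% rose and 3.51% fell with IVF in Atf7-/-. With ATF7 loss in natural mating 3.83% rose, and 3.46% had an interaction called below 0. Of 10 other tubulins, 1 was called, Tubg1, the gamma-tubulin that seeds microtubules. It rose by 0.84 ± 0.12 (SE) with ATF7 loss in natural mating (limma, adjusted p = 0.00127), fell by 0.61 ± 0.12 with IVF in Atf7-/- (adjusted p = 0.00785) and gave an interaction of -1.08 (adjusted p = 0.00477). The fall with IVF in Atf7-/- lost its call without Atf7-/- natural mating replicate 3 (-0.53) and without Atf7-/- IVF replicate 1 (-0.59) or 3 (-0.51). Of 8 genes of the gamma-tubulin ring complex, Mzt1, a small subunit, rose with IVF in WT by 1.26 ± 0.23 (limma, adjusted p = 0.0101) and with ATF7 loss in natural mating by 0.86 ± 0.23 (adjusted p = 0.0305), on 1 of its 2 probe sets. The other was not called, at 0.43 (limma, adjusted p = 0.0609) and 0.16 (adjusted p = 0.492). Tubgcp4, another subunit, rose by 0.63 ± 0.14 with ATF7 loss in natural mating (limma, adjusted p = 0.0121), with an interaction of -0.79 (adjusted p = 0.0361). For ATF7 loss in natural mating, leaving out single arrays lost the call of that Mzt1 probe set in 5 of 12 cases (adjusted p up to 0.0910) and that of Tubgcp4 in 2 of 12.

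Of 22 genes for tubulin folding 3 were called in at least 1 comparison. The share of all probe sets called in at least 1 comparison was not counted, so nothing is read from this number. Of the 8 subunits of the CCT chaperonin, which folds new tubulin and actin, Cct7 rose by 0.90 ± 0.10 (SE) and Cct5 by 0.64 ± 0.09 with IVF in Atf7-/- (limma, adjusted p = 0.00036 and 0.00117), and the median of the list was 0.32. Cct5 lost its call without Atf7-/- IVF replicate 2 (0.55). No CCT gene was called in the other comparisons. Of 6 prefoldin genes, whose product passes new chains to CCT, none was called in limma, although 5 had an unadjusted p under 0.05 with IVF in Atf7-/-, where 26% of all probe sets had, with a median of 0.36. Of 8 folding cofactor genes, 1 was called, Arl2, a small GTPase that acts with the cofactors. Arl2 fell by 0.79 ± 0.15 with IVF in Atf7-/- (limma, adjusted p = 0.00611) and rose by 0.61 ± 0.15 with ATF7 loss in natural mating (adjusted p = 0.0205), the second of which lost its call without 4 of the 12 arrays in turn (adjusted p up to 0.0816).

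Of 22 measured genes for enzymes that modify tubulin, 3 fell with IVF in Atf7-/-, where 3.51% of all probe sets fell, and 3 rose with ATF7 loss in natural mating, where 3.83% rose, and none was called with IVF in WT. Ttll12, a member of the tubulin tyrosine ligase-like family, fell by 0.88 ± 0.13 (SE) and rose by 0.76 ± 0.13 in these comparisons (limma, adjusted p = 0.00144 and 0.00255). Ttll1, the catalytic subunit of a polyglutamylase, fell by 0.68 ± 0.11 and rose by 0.89 ± 0.11 (limma, adjusted p = 0.00299 and 0.000561). Their interactions were -0.89 and -0.90 (limma, adjusted p = 0.0143 and 0.00785). The deacetylase gene Sirt2 fell by 0.67 ± 0.10 with IVF in Atf7-/- (limma, adjusted p = 0.00204), and this was -0.57 and not called without Atf7-/- IVF replicate 2. Ttl, which restores the final tyrosine of alpha-tubulin, rose by 0.69 ± 0.18 with ATF7 loss in natural mating (limma, adjusted p = 0.0267), a call lost without 5 of the 12 arrays in turn (adjusted p up to 0.0922).

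Of 25 measured genes for microtubule-associated proteins, Map4, which binds and stabilises microtubules in most tissues, fell by 0.70 ± 0.12 (SE) with IVF in Atf7-/- and rose by 0.72 ± 0.12 with ATF7 loss in natural mating (limma, adjusted p = 0.00343 and 0.00274). This was 1 of its 2 probe sets, and the other gave the opposite signs, 0.08 and -0.45, neither called (limma, adjusted p = 0.804 and 0.0549), so the direction of Map4 is not settled. The interaction was -0.71 for the first Map4 probe set and 0.48, not called, for the second (limma, adjusted p = 0.0298 and 0.176) and 0.64 for Katna1, the severing subunit of katanin (adjusted p = 0.00875). No other gene of this list was called, and its median log2 fold change was 0.021 with IVF in Atf7-/- and 0.038 with ATF7 loss in natural mating. With ATF7 loss in IVF no gene of the 7 lists was called in limma, while 2 other tubulins, 1 folding cofactor and 1 microtubule-associated protein had a probe set with an unadjusted p under 0.05. The comparisons of IVF in Atf7-/- and of ATF7 loss in natural mating share the 3 Atf7-/- natural mating livers, which were read on opposite sides.

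**Figure D4:**
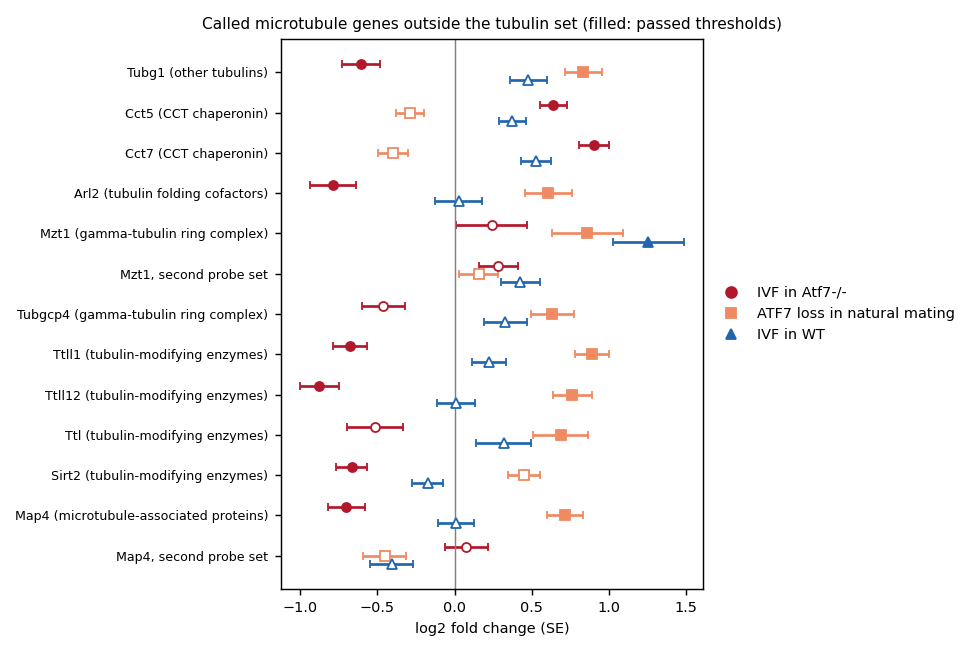
Log2 fold changes with SE of the 11 microtubule genes outside the tubulin list that were called in at least 1 of 3 comparisons (n = 3 livers per group), with filled symbols for those past both thresholds and all probe sets of Mzt1 and Map4 shown. For Tubg1, Arl2, Ttll1, Ttll12 and the first probe set of Map4 the filled circle of IVF in Atf7-/- lies below 0 and the filled square of ATF7 loss in natural mating above 0.

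Tubb2a had the widest range of group means among the tubulins, 1.34, which is the difference on which it was selected. By that rule it was taken for a search of like patterns. The genes whose log2 values followed it most closely over the 12 arrays, among 21633 probe sets with 1 symbol, were Sumo2 (r = 0.971), Smpdl3a (0.969), Exosc8 (0.963), Gtf3c6 (0.959) and Ctdspl2 (0.958). These correlations are descriptions over arrays that share 4 groups.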

How the data were processed

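Liver RNA of 12 male mice was hybridised, one array each, to Affymetrix Mouse Gene 1.0 ST arrays. The deposited values are log2 intensities that the authors produced by RMA with the R package affy, and they were used as given. Depth does not apply to arrays, and the number of livers limits the precision. Probe sets were named from the platform annotation: 21640 of 34760 had 1 symbol, 1321 several and 11799 none, and no gene was named from a probe set with several.

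Comparisons used limma 3.58.1 in R 4.3.3 on all 12 arrays, with 4 group means, 8 residual degrees of freedom and Benjamini-Hochberg adjustment over all probe sets, and the thresholds of the study (adjusted p of 0.05, log2 fold change of 0.6). The fit was tested on simulated data. The members, gene lists and marker lists were chosen with earlier results of these data known. Named genes are all listed tubulins, every called gene of the microtubule and marker lists, and the 5 genes most correlated with the tubulin of widest range. Alternatives were the 2 groups compared alone, replicate number as a block, trended and robust variances, array weights, median centring and quantile normalization. Others were removal of dim probe sets, removal of probe sets with no symbol or several, other fold limits and leaving out each array. Promoters came from RefSeq tables of GRCm38.p6.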

Additional observations from a re-analysis of the deposited data

Results flagged for a closer look

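For 9 genes outside the selected Tubb2a and Tuba1a, the effect of IVF differed between the genotypes by the interaction test of limma over all probe sets. The log2 effect in Atf7-/- livers minus that in WT livers was -1.50 for Tubb6, -1.32 for Tubb5, -1.08 for Tubg1, -0.90 for Ttll1, -0.89 for Ttll12, -0.81 for Arl2, -0.79 for Tubgcp4, -0.71 for 1 of the 2 probe sets of Map4 and 0.64 for Katna1. Leaving out each of the 12 arrays in turn, the calls of Tubb5, Tubb6, Tubg1, Ttll1 and Ttll12 were kept every time. The call was lost in 10 of 12 cases for Arl2, in 8 for Tubgcp4, in 7 for Map4 and in 1 for Katna1, without WT natural mating replicate 2 (0.58). The second probe set of Map4 gave 0.48, the opposite sign, and was not called. The WT side of each difference is the comparison that brought Tubb2a and Tuba1a to attention.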

How the results depend on the processing

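A fold limit of 1 on the log2 scale left 1 tubulin called with IVF in WT, 1 with IVF in Atf7-/- and 1 with ATF7 loss in natural mating. Leaving out each array in turn gave between 2 and 6 tubulins called with ATF7 loss in natural mating, 6 of them without WT natural mating replicate 3, and array weights also gave 6. The other counts stayed within 1.5 times under every alternative run, and no called value changed its sign. The interaction was not fitted with only the 2 groups compared. Same-numbered livers did not deviate together in every pair, with correlations between -0.124 and 0.239 over 4 comparisons, so the numbers were not taken as pairs. With replicate number as a block 2 tubulins were called with IVF in WT, 3 with IVF in Atf7-/-, 4 with ATF7 loss in natural mating, 0 with it in IVF and 3 for the interaction, and the block ended 2 calls and changed no other, Mzt1 with ATF7 loss in natural mating (adjusted p = 0.0553) and the interaction of Map4 (0.0507). Fitting only the 2 groups compared lost Tubb5 with IVF in Atf7-/- (limma, adjusted p = 0.0865), which left 2 tubulins called there. It also lost Arl2 (adjusted p = 0.0754) and Mzt1 (0.0730) with ATF7 loss in natural mating. Array weights called Tuba4a (0.69, limma, adjusted p = 0.0360) and Tuba8 (0.62, 0.0169) with ATF7 loss in natural mating and Tuba4a with IVF in WT (0.92), and put Arl2 with ATF7 loss in natural mating below the fold limit (0.58). Quantile normalization put Tubg1 with IVF in Atf7-/- (-0.60) and Tubgcp4 with ATF7 loss (0.59) just below the fold limit, and median centring did so for the interaction of Katna1 (0.56). The causes were not tested. With 3 livers per group, an uncalled difference is not shown to be absent.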

Other observations

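Tubb4b, Tuba1b and Tuba1c were read only through probe sets that name several genes, so the values below belong to no single gene and carry no test. The probe set naming Tuba1c and Tuba1b averaged 11.29 in Atf7-/- IVF livers, 11.79 in Atf7-/- natural mating livers, 11.56 in WT IVF livers and 10.55 in WT natural mating livers on the log2 scale. Its highest WT natural mating liver read 10.76 and the lowest liver of the other groups 10.93. One of the probe sets naming Tuba1c, Tuba1b and Tuba1a averaged 10.79 in Atf7-/- IVF livers, 11.26 in Atf7-/- natural mating livers, 11.02 in WT IVF livers and 9.92 in WT natural mating livers. Another averaged 8.46, 8.14, 8.58 and 8.19 in Atf7-/- IVF, Atf7-/- natural mating, WT IVF and WT natural mating livers. The 3 probe sets with these names gave differences of 1.34, -0.06 and 0.26 with ATF7 loss in natural mating. The 2 probe sets naming Zfp646 and Tubb4b averaged 8.19 and 9.02 in Atf7-/- IVF livers, 8.23 and 9.44 in Atf7-/- natural mating livers, 8.77 and 9.49 in WT IVF livers, and 8.30 and 9.07 in WT natural mating livers. The probe set naming Tubb2a, Tubb2b and the pseudogene Tubb2a-ps2 averaged 6.05 in Atf7-/- IVF livers, 5.93 in Atf7-/- natural mating livers, 6.07 in WT IVF livers and 5.72 in WT natural mating livers.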
